A study of Mus musculus with 32 samples.

Results

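Handling and injection are shared by every treated pup in a neonatal lung study, whatever the syringe holds. The comparison described here set 16 injected lungs at postnatal day 14 against 4 lungs from untreated pups of the same age, out of 32 libraries in the series. The injected libraries came from 4 groups of 4: saline given into the peritoneum daily from day 1 to day 13 (25 µl per g), 10 µl per g of nuclease-free water on days 1 and 3, and the locked nucleic acid oligonucleotides Scrambled 1 and Scrambled 2, each dissolved in such water and given on days 1 and 3 at 10 mg per kg. All pups were C57BL/6 mice with no genetic modification given in the labels, and whole lung was measured as polyadenylated RNA. The 4 injected groups were weighted equally (25% each), and a gene counted as a shared injection effect only if it passed the test and had the same sign in all 4. The solution, the volume and the number of injections differ between groups, so these cannot be told apart when 1 group departs from the others. The labels name no group that was handled or punctured without an injected liquid.

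At this age the mouse lung is dividing its air sacs by new septa. Flat alveolar type 1 cells spread over the septa and form the gas exchange surface on a basement membrane that they share with capillaries. Cuboidal alveolar type 2 cells make surfactant. Stress hormones, inflammation and wounding each have well-known target genes in this tissue. Vehicle-injected pups rather than untreated ones usually serve as controls.

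The libraries held 7918537 to 11417785 exon reads, and 14179 genes had enough reads for the test. Depth, the share of unique reads, the share of intronic reads, the share taken by the 10 most abundant genes and the number of genes with reads gave two-sided exact permutation p-values of 0.391 to 0.909 between injected and untreated libraries (adjusted p = 0.909 for all 5 measures). The intronic share was 12.6% ± 1.94 (SD, n = 16) in injected and 12.7% ± 1.95 (SD, n = 4) in untreated lungs, but it differed inside the injected set, at 10.0% ± 1.04 (SD, n = 4) with daily saline and 14.1% ± 1.42 (SD, n = 4) with water. Xist, the RNA of the inactive X chromosome, was high in 3 of 4 untreated and 5 of 16 injected libraries (2 with daily saline, 2 with Scrambled 1, 1 with Scrambled 2, none with water), so sex was unevenly spread over the comparison. The 10 lung identity genes together held 18392 to 24130 CPM (exon reads scaled to library size) in injected and 19066 to 23077 CPM in untreated lungs. Water replicate 3 held 252 CPM of skeletal muscle genes and 650 CPM of adipose genes in sum (9 genes tested of each list), against at most 53.7 and 113 CPM in untreated lungs. Nothing in the labels ties each library to a separate pup, so the p-values cover the scatter of the samples at hand, part of which may be technical.

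No gene was called as changed by injection. The edgeR quasi-likelihood test called 0 of 14179 genes at an adjusted p under 0.05 (percent called, 0.0), the smallest adjusted p was 0.201, and no shared injection effect was therefore found. At an unadjusted p under 0.05 there were 911 genes (6.42%), of which 455 were higher (3.21%) and 456 lower (3.22%) in injected lungs, and 818 of the 911 had the same sign in all 4 groups (5.77% of the genes tested). DESeq2 called 12 of 14169 genes (0.0847%), 9 higher, among them Cgn, Fam174b, Fam53b, Nt5e, Lars2, Spock2, Ager and Col4a5, and 3 lower, Nox4, Grb10 and Gpc4, all 12 with the same sign in the 4 groups. Limma-voom with quality weights called 2 of 14179 (0.0141%), Bdkrb2 and BC100530, both lower. Over all genes tested, 2320 (16.4%) stood higher and 2405 (17.0%) lower in all 4 groups. The 4 groups were compared with the same 4 untreated libraries, and a chance high or low level in those libraries moves all 4 values together.

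The precision bounds what could have been missed. The SE of the log2 fold change had a median of 0.07. Among 13910 genes with a mean of at least 1 CPM, the 95% interval lay wholly within 1.5-fold in either direction for 89.9% and within 2-fold for 98.0%.

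The genes with the smallest p among those higher in all 4 groups were Cgn, Spock2, Fam53b, Fam174b and Nt5e, and none passed the adjusted threshold in edgeR. Cgn encodes cingulin, a protein of epithelial tight junctions (gene ID 70737, chromosome 3, 94760069 to 94787724). It stood at 67.7, 65.01, 74.1 and 77.6 CPM in the untreated lungs, and at 71.6, 85.4 and 95.1 CPM (lowest, median and highest) in the 16 injected lungs. The ranges overlapped in 2 daily saline lungs, and the other 14 injected lungs lay above every untreated one. The log2 fold change was 0.26 ± 0.05 (SE; adjusted p = 0.254, edgeR), and in their own edgeR comparisons water (0.34, adjusted p = 0.0360) and Scrambled 1 (0.32, adjusted p = 0.0320) rose. No water library had high Xist, against 3 of 4 untreated ones, and with Xist as a covariate the water comparison called 0 genes. The log2 fold change of Cgn over the 4 groups was 0.26 ± 0.06 with that covariate (SE; adjusted p = 0.259, edgeR). In the libraries with high Xist alone it was 0.20 ± 0.08 (SE; unadjusted p = 0.0231, edgeR). Of the Cgn reads 87.6% were unique.

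Spock2 encodes a testican, a proteoglycan of the extracellular matrix that alveolar type 1 cells make (gene ID 94214, chromosome 10, 60106257 to 60135198). It stood at 298, 317, 340 and 329 CPM in untreated lungs, and at 315, 411 and 482 CPM (lowest, median and highest) in injected lungs. A single injected library, Scrambled 1 replicate 4, lay within the untreated range. The log2 fold change was 0.34 ± 0.07 (SE; adjusted p = 0.31, edgeR), and it was 0.32 for daily saline, 0.30 for water, 0.30 for Scrambled 1 and 0.44 for Scrambled 2.

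Nt5e encodes the ectoenzyme CD73, which makes adenosine from AMP outside the cell (gene ID 23959, chromosome 9, 88327609 to 88372089). Its untreated values were 64.2, 63.8, 67.1 and 70.5 CPM, and its injected values 68.5, 78.5 and 92.0 CPM (lowest, median and highest). The log2 fold change was 0.27 ± 0.07 (SE; adjusted p = 0.348, edgeR), with 15 of 16 injected libraries above every untreated one. Fam53b (gene ID 77938, chromosome 7, 132712078 to 132813196) and Fam174b (gene ID 100038347, chromosome 7, 73740307 to 73776919) had smaller differences, 0.22 ± 0.05 and 0.21 ± 0.05 (log2, SE), but in both genes all 16 injected libraries lay above all 4 untreated ones.

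Ranges of CPM that did not overlap between the 16 injected and 4 untreated libraries were found in 10 of the 14179 genes (0.0705%), and these were named after their values were seen. Higher were Tdrd7, Fam174b, Apbb1, Fam53b, Osbpl5, Sema3b and Arf3, with log2 fold changes of 0.10 for Osbpl5 to 0.22 for Sema3b. Lower were Srp54c (−0.10), Zfp948 (−0.21) and BC100530 (−0.91). Only 6.61% of the reads of Srp54c and 66.7% of those of BC100530 were unique, so their counts may hold reads of near-identical copies. The differences in this set were small in every gene but BC100530. There are 4845 ways to choose 4 of 20 libraries, and in each direction a single choice separates a gene fully. Several such genes among 14179 would therefore be met by chance, and the set is not support for an injection effect.

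BC100530 belongs to the stefin A cluster of protease inhibitors, which neutrophils express. It stood at 5.02, 4.88, 6.23 and 5.23 CPM in the untreated lungs and at 1.69, 2.80 and 4.04 CPM (lowest, median and highest) in the injected ones. The log2 fold change was −0.91 ± 0.18 (SE; adjusted p = 0.254 in edgeR, 0.0375 in limma-voom), and each group lay lower on its own, at −0.85 for daily saline, −0.68 for water, −1.05 for Scrambled 1 and −1.05 for Scrambled 2. The test among the 4 injected groups gave an adjusted p of 0.705 (edgeR).

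Apart from BC100530, the genes with the smallest p among those lower in all 4 groups were Bdkrb2, Neurl3, Nox4, Zfp663 and Gpc4, and 4 of these 5 (all but Zfp663) passed the test among the 4 injected groups in edgeR, with daily saline the nearest of the 4 to untreated in each. Bdkrb2 encodes the B2 receptor for bradykinin, a peptide that widens vessels and makes them leak (gene ID 12062, chromosome 12, 105563172 to 105595244). Untreated lungs held 8.40, 9.44, 8.38 and 5.004 CPM, and daily saline lungs 7.30, 9.18, 7.03 and 4.45 CPM. Water lungs held 2.83, 4.14, 2.76 and 5.13 CPM, Scrambled 1 lungs 2.89, 2.41, 3.98 and 3.20 CPM, and Scrambled 2 lungs 3.97, 3.29, 1.94 and 2.64 CPM. Of these last 12 lungs, 11 lay below every untreated lung, while the daily saline values ran alongside the untreated ones. The log2 fold change of the mean was −0.99 ± 0.18 (SE; adjusted p = 0.201, edgeR), and by group it was −0.16 for daily saline, −1.08 for water, −1.31 for Scrambled 1 and −1.40 for Scrambled 2. The test among the 4 injected groups was passed (adjusted p = 0.0207, edgeR), so the equal sign in all 4 does not describe an equal size. Limma-voom called Bdkrb2 (adjusted p = 0.0175). The log2 fold change of Bdkrb2 over the 4 groups was −0.996 ± 0.204 with Xist as a covariate (SE; adjusted p = 0.259, edgeR). In the pooled fit of libraries with high Xist alone, that of Bdkrb2 was −0.64 ± 0.48 (SE; unadjusted p = 0.222, edgeR). Of the 5 injected libraries in this pooled fit 2 are daily saline and none is water, so its mix of groups is not the same.

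Neurl3 encodes an E3 ubiquitin ligase of the neuralized family found in lung epithelium (gene ID 214854, chromosome 1, 36264602 to 36274674). Untreated lungs held 26.2, 27.9, 27.5 and 18.0 CPM, daily saline lungs 25.3, 26.7, 26.0 and 14.5 CPM, and the 12 other injected lungs at most 19.6 CPM. Its log2 fold change was −0.59 ± 0.12 (SE; adjusted p = 0.27, edgeR), with −0.11 for daily saline and −0.90 for water. With Xist as a covariate that of Neurl3 was −0.58 ± 0.14 (SE; adjusted p = 0.259, edgeR). In the pooled fit of libraries with high Xist alone, which holds no water library, it was −0.34 ± 0.27 (SE; unadjusted p = 0.241, edgeR). Nox4, an NADPH oxidase that makes hydrogen peroxide (gene ID 50490, chromosome 7, 87246405 to 87398710), stood at 93.9 ± 3.74 CPM (SD, n = 4) in untreated lungs and 91.3 ± 1.84 CPM (SD, n = 4) with daily saline, and at 72.7 ± 4.93 CPM (SD, n = 4) with water, 79.2 ± 2.46 CPM (SD, n = 4) with Scrambled 1 and 88.3 ± 4.50 CPM (SD, n = 4) with Scrambled 2. Scrambled 2 (−0.09, log2) lay nearer to daily saline (−0.04) than to water (−0.37) or Scrambled 1 (−0.25). Its log2 fold change over the 4 groups was −0.19 ± 0.04 (SE; adjusted p = 0.348, edgeR), and water (adjusted p = 0.00699) and Scrambled 1 (adjusted p = 0.0484) passed in their own comparisons in edgeR. With Xist as a covariate the water comparison called 0 genes, while the log2 fold change of Nox4 over the 4 groups was −0.18 ± 0.05 (SE; adjusted p = 0.259, edgeR). In the libraries with high Xist alone that of Nox4 was −0.15 ± 0.07 (SE; unadjusted p = 0.0388, edgeR). Gpc4, a heparan sulphate proteoglycan at the cell surface (gene ID 14735, chromosome X, 52050885 to 52164923), stood at −0.22 ± 0.05 (log2, SE) over the 4 groups and at −0.01 in daily saline. Zfp663, a zinc finger gene (gene ID 381405, chromosome 2, 165351297 to 165369977), is the exception of the 5, with −0.36 in daily saline and −0.37 ± 0.09 (SE) over the 4 groups.

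**Figure D1:**
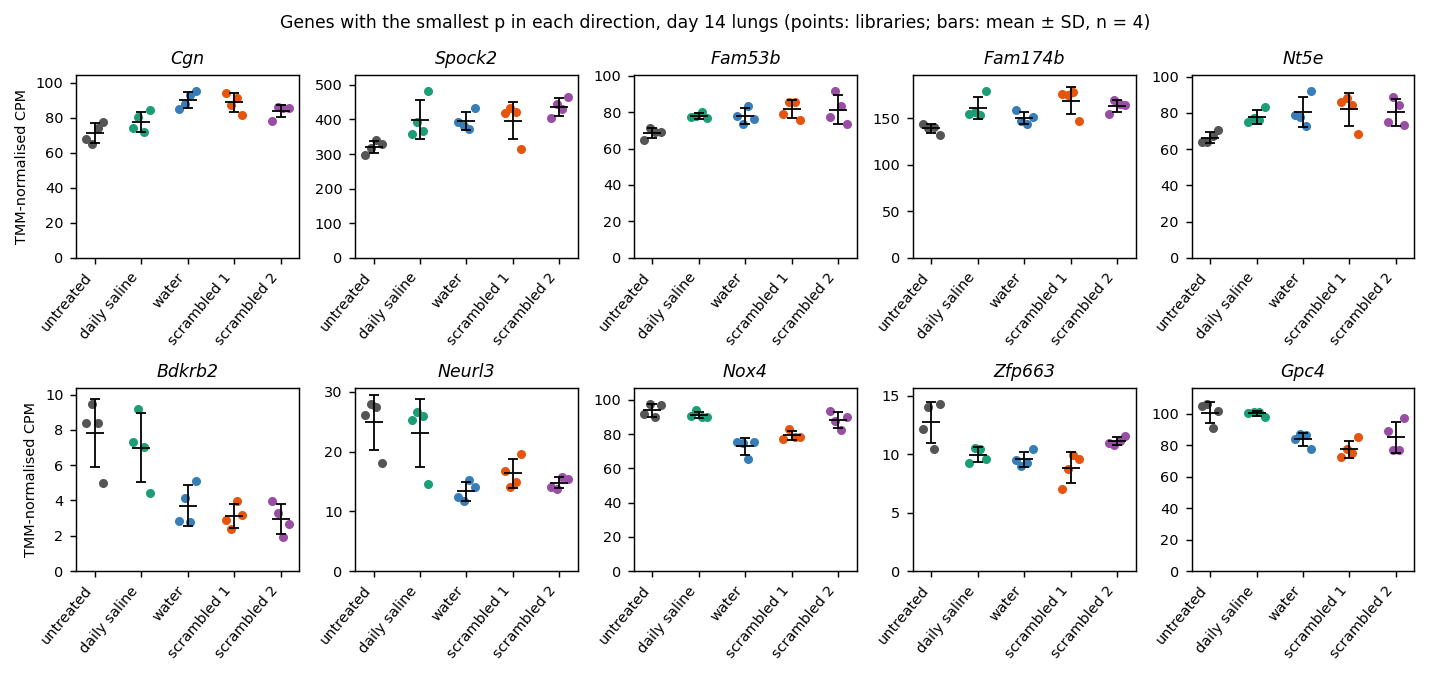
TMM-normalised CPM (vertical axis, from 0) of the 5 genes with the smallest p in each direction (BC100530 left aside), in each library of the 5 groups at day 14; bars show the mean and SD, n = 4. The injected groups sit together above untreated for Spock2, Fam53b and Nt5e, while for Bdkrb2, Neurl3 and Gpc4 the daily saline libraries lie beside the untreated ones and the other injected groups lie lower; for Nox4 the water and Scrambled 1 groups lie lower.

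Leaving daily saline out of the mean gave 11 called genes of 14179 (0.0776%), 4 higher and 7 lower (edgeR). Xist was high in 3 of 4 untreated libraries, but in 2 of 4 Scrambled 1, 1 of 4 Scrambled 2 and 0 of 4 water libraries. The part of sex in these 11 calls was not tested. Among those that rose in this alternative were Cgn (0.30 ± 0.05, log2, SE), H2-Ob (0.47 ± 0.09), a class II antigen presentation gene of B cells, and Gimap3 (0.42 ± 0.08), a GTPase of lymphocytes. Those that fell were Bdkrb2 (−1.26 ± 0.19), Neurl3 (−0.75 ± 0.13), Cemip (−0.49 ± 0.08), Prss35 (−0.38 ± 0.06), Aspn (−0.30 ± 0.06), Gpc4 (−0.30 ± 0.06) and Nox4 (−0.24 ± 0.04). Cemip encodes a protein that degrades hyaluronan, Aspn the small matrix proteoglycan asporin, and Prss35 a protein of the serine protease family. In 6 of the 11 genes daily saline did not have the sign of the other 3 groups, so they could not count as shared, and 10 of the 11 passed the test among the 4 injected groups at an adjusted p under 0.05 (edgeR), Cgn being the exception at 0.167. The 11 genes were picked in the same libraries by leaving daily saline out. Its departure in them was therefore largely set by that choice and is no separate support.

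Cemip stood at 47.3, 46.0, 51.9 and 53.0 CPM in untreated and at 47.4, 51.0, 49.7 and 50.2 CPM in daily saline lungs. Water lungs held 33.6, 32.4, 33.2 and 31.1 CPM, Scrambled 1 lungs 31.1, 44.7, 33.3 and 29.9 CPM, and Scrambled 2 lungs 46.0, 39.5, 38.2 and 32.2 CPM. All 12 lungs of these 3 groups lay below every untreated and every daily saline lung, Scrambled 2 replicate 1 only just so. In its own edgeR comparison the water group fell by 0.60 on the log2 scale (adjusted p = 0.0165) and Scrambled 1 fell by 0.52 (adjusted p = 0.0233). Scrambled 2 stood at −0.35 (adjusted p = 0.49) and daily saline at 0.00. The water comparison called 0 genes with Xist as a covariate. With Xist as a covariate the log2 fold change of Cemip was −0.32 ± 0.08 (SE; adjusted p = 0.259, edgeR), against −0.37 without it. In the pooled fit of libraries with high Xist alone it was −0.22 ± 0.12 (SE; unadjusted p = 0.0984, edgeR). Of the 5 injected libraries in that fit 2 are daily saline and none is water, so the mix of groups is not the same.

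Gimap3 ran the other way, at 11.8 ± 1.30 CPM (SD, n = 4) in untreated, 10.9 ± 0.71 in daily saline, 17.1 ± 0.97 in water, 16.3 ± 0.78 in Scrambled 1 and 14.3 ± 1.1 in Scrambled 2 lungs. Prss35 was lowest with Scrambled 1 (83.9 ± 7.42 CPM, SD, n = 4) and highest with daily saline (150.0 ± 10.7 CPM, SD, n = 4), with untreated lungs between them at 130.1 ± 12.2 CPM (SD, n = 4).

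**Figure D2:**
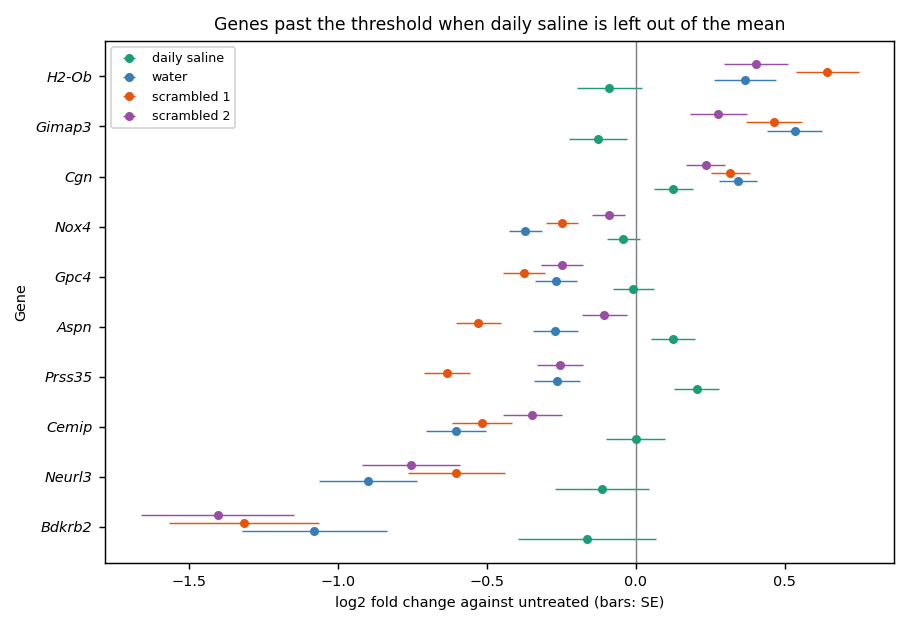
Log2 fold change against the same 4 untreated libraries (horizontal axis, bars are SE) for 10 of the 11 genes called when daily saline was left out of the mean, with 1 point for each injected group. Daily saline lies near 0 or on the opposite side for most genes, while Cgn lies above 0 in all 4 groups. The genes were picked by leaving daily saline out, so its departure was largely set by that choice.

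Each injected group against untreated on its own gave 33 calls for daily saline (0.233%), 7 for water (0.0494%), 43 for Scrambled 1 (0.303%) and 0 for Scrambled 2 (edgeR). With Xist as a covariate these counts were 22 for daily saline, 0 for water, 39 for Scrambled 1 and 0 for Scrambled 2. Sex and water were confounded, as no water library had high Xist. For Scrambled 2, DESeq2 gave 2 and limma-voom 1. The injected groups differed from each other in 217 genes (1.53%, edgeR, 3 degrees of freedom), a test in which the untreated libraries serve only for the spread. Daily saline was the group farthest from the other 3 in 118 of the 217, Scrambled 1 in 64, water in 28 and Scrambled 2 in 7. Of the 217, 23 had the same sign against untreated in all 4 groups, while 33.3% of all genes tested did so. The 217 were picked for differing between the injected groups, so a low share of equal signs was largely set by that choice.

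Gene lists were read by counts beside all genes, with no test of the list and no gene called in any of them in the edgeR comparison. The lists were chosen with earlier results of these data known. Alveolar type 1 cell genes lay above 0: all 16 stood higher in injected lungs, 13 had the same sign in all 4 groups (16.4% of all genes did so upward) and 11 reached an unadjusted p under 0.05 (3.21% of all genes upward). The median log2 fold change was 0.20, against −0.0019 over all genes, and it was 0.19 for daily saline, 0.16 for water, 0.19 for Scrambled 1 and 0.22 for Scrambled 2. The summed level was 8431 to 8953 CPM in untreated and 8775 to 10592 CPM in injected lungs. In this whole tissue, more cells of a type and more RNA per cell cannot be told apart.

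Ager encodes the receptor for advanced glycation end-products, a membrane protein of type 1 cells (gene ID 11596, chromosome 17, 34597410 to 34600937). It stood at 1152, 1271, 1304 and 1164 CPM in untreated lungs and at 1291, 1439 and 1848 CPM (lowest, median and highest) in injected lungs. All injected libraries but Scrambled 1 replicate 4 lay above the untreated range. The log2 fold change was 0.30 ± 0.08 (SE; adjusted p = 0.356 in edgeR, 0.0458 in DESeq2), and DESeq2 also called Spock2 (adjusted p = 0.0141).

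The water channel Aqp5 stood at 176 ± 10.9 CPM (SD, n = 4) in untreated and 205 ± 20.2 CPM (SD, n = 16) in injected lungs. Only 14.8% of its reads were unique. Clic5, a protein of the cell cortex, stood at 685 ± 24.0 and 808 ± 77.7 CPM (SD, n = 4 and n = 16), the anchoring protein gene Akap5 at 373 ± 13.0 and 463 ± 58.4 CPM, and the lipid transfer protein gene Sec14l3 at 734 ± 74.5 and 895 ± 94.5 CPM. The sodium channel subunit gene Scnn1g stood at 0.23 ± 0.08, the receptor gene Gprc5a at 0.18 ± 0.06 and the tight junction gene Cldn18 at 0.17 ± 0.06 (log2, SE). The 5 members that did not reach an unadjusted p of 0.05, Rtkn2, Igfbp2, Hopx, Vegfa and Cav1, lay between 0.0027 and 0.22. Vegfa was below 0 in daily saline and Cav1 below 0 in water, while Igfbp2 stood near 0 in water.

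The list's values moved with single libraries. Relative to the untreated mean, the mean log2 level of the 16 genes was lowest in Scrambled 1 replicate 4 (0.01) and water replicate 3 (0.03) and highest in daily saline replicate 4 (0.33), against −0.05 to 0.06 in the untreated libraries. Among libraries with high Xist alone (3 untreated, 5 injected), 15 of 16 members stood higher, their median was 0.19 and 10 reached an unadjusted p under 0.05. With Xist as a covariate all 16 lay above 0, with a median of 0.19. In intron reads of the same libraries 14 of 16 lay above 0, with a median of 0.10 and 2 at an unadjusted p under 0.05 (4.27% of 14230 genes). Ager itself stood at 0.03 ± 0.10 (log2, SE) in intron reads and Spock2 at 0.15 ± 0.11.

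**Figure D3:**
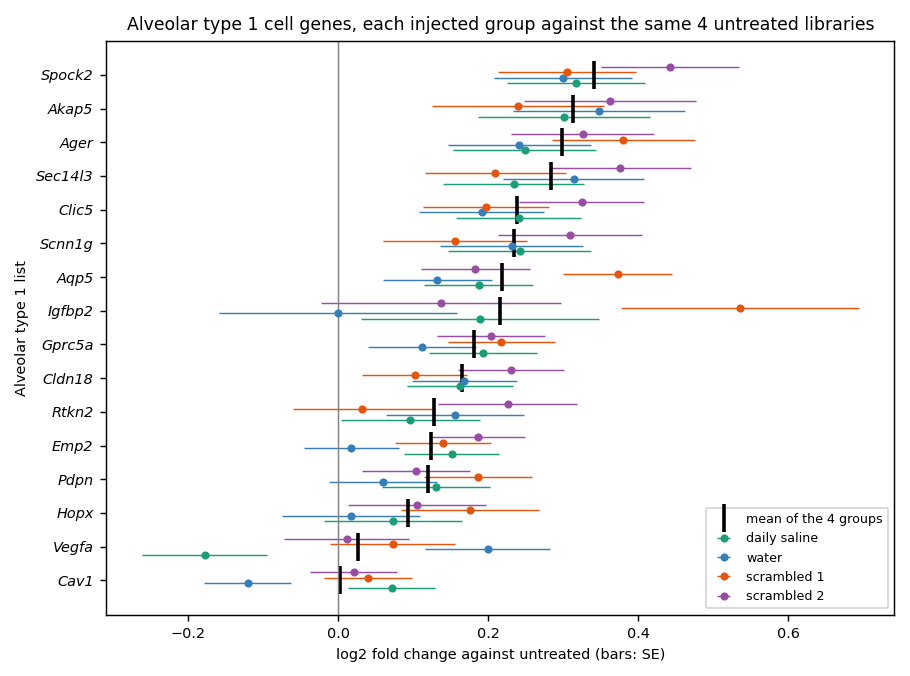
Log2 fold change against untreated (horizontal axis, bars are SE) of the 16 alveolar type 1 cell genes, with 1 point for each injected group and a black mark for the mean of the 4. All black marks lie above 0, from 0.0027 for Cav1 to 0.34 for Spock2, and the 4 groups share the same 4 untreated libraries.

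Of 24 collagen genes 19 stood higher and 6 reached an unadjusted p under 0.05 (3.21% of all genes upward), with 11 higher in all 4 groups (16.4% of all genes) and a median of 0.06. In intron reads 10 of the 22 collagen genes tested lay above 0, the median was −0.0080 and 0 reached an unadjusted p under 0.05 (edgeR). The 6 were 5 chains of type IV collagen, the network former of basement membranes, and Col18a1, the precursor of endostatin. Col4a5 stood at 256 ± 17.6 CPM (SD, n = 4) in untreated and 325 ± 38.1 CPM (SD, n = 16) in injected lungs, a log2 fold change of 0.34 ± 0.09 (SE; adjusted p = 0.356 in edgeR, 0.0407 in DESeq2). Col4a4 (0.32 ± 0.10) and Col4a3 (0.33 ± 0.12), which assemble with it, were of like size, while Col4a1 (0.12 ± 0.05) and Col4a2 (0.13 ± 0.06), the chains found in most basement membranes, were smaller. Only 38.5% of Col4a3 reads were unique. Lars2, the mitochondrial leucyl-tRNA synthetase, had the largest difference among the genes DESeq2 called (0.74 ± 0.19, log2, SE). It was named after its values were seen. It stood at 349 ± 59.8 CPM (SD, n = 4) in untreated and 811 ± 34.5 CPM (SD, n = 4) in Scrambled 1 lungs, and 83.5% of its reads were unique. Scrambled 1 was its most extreme group: the log2 fold change was 0.62 for daily saline, 0.66 for water, 1.22 for Scrambled 1 and 0.44 for Scrambled 2. The fibrillar collagen genes Col1a1 (0.13) and Col3a1 (0.07) did not reach an unadjusted p of 0.05.

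Alveolar type 2 cell genes gave no such pattern. Of 18, 5 lay above and 13 below 0, none reached an unadjusted p under 0.05, and the median was −0.06. Sftpc, the surfactant protein C gene, stood at 10318 ± 753 CPM (SD, n = 4) in untreated and 9828 ± 959 CPM (SD, n = 16) in injected lungs, a log2 fold change of −0.07 ± 0.07 (SE). Sftpb stood at 0.04 ± 0.07 (log2, SE).

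Stress lists held at most 1 gene in each direction at an unadjusted p under 0.05, apart from the wound healing list with 3 lower. Of 20 glucocorticoid target genes 10 lay above and 10 below 0, with a median of −0.0020, and 1 in each direction reached an unadjusted p under 0.05: Klf9 (0.17 ± 0.08, log2, SE; 0.11 without untreated replicate 1) and Mt2 (−0.29 ± 0.14; −0.09 in the libraries with high Xist alone). Of 23 immediate early genes, which respond within minutes to stimulation, 1 did so (Klf4, −0.22 ± 0.10, and −0.09 without untreated replicate 3), and the list's median was −0.05. Of 15 genes of acute inflammation Icam1 alone did so (0.20 ± 0.06), with 223 ± 17.8 CPM (SD, n = 4) in untreated and 256 ± 17.9 CPM (SD, n = 16) in injected lungs. Of 24 interferon-stimulated genes Xaf1 alone did so (−0.19 ± 0.08, but −0.12 without untreated replicate 1 and −0.0066 in the libraries with high Xist alone), and of 20 heat shock and unfolded protein response genes none did. Of 25 genes that sense nucleic acids or handle antisense oligonucleotides, Nlrp1b alone did so, at −0.64 ± 0.25 (log2, SE) and −1.33 in daily saline, which received no oligonucleotide. Among 24 antioxidant enzyme and NADPH oxidase genes Nox4 was the only one. Of 19 genes of wound healing and the peritoneal lining 16 lay below 0, with a median of −0.10 that was −0.04 for daily saline, −0.12 for water, −0.10 for Scrambled 1 and −0.12 for Scrambled 2. Of these genes 3 reached an unadjusted p under 0.05 (3.22% of all genes downward), namely Tnc, the matrix protein tenascin C (−0.20 ± 0.06, and −0.11 without untreated replicate 4), Upk1b, a uroplakin of the mesothelium (−0.20 ± 0.08), and Plaur, the urokinase receptor (−0.17 ± 0.08).

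Neutrophil genes lay lower in injected lungs. Of 13, 12 lay below 0, 8 of them in all 4 groups (17.0% of all genes), and 6 reached an unadjusted p under 0.05 (3.22% of all genes downward). The median was −0.40, which was −0.19 for daily saline, −0.29 for water, −0.50 for Scrambled 1 and −0.39 for Scrambled 2. BC100530, described above, is the lowest member (−0.91). Relative to the untreated mean, the list's mean log2 level ran from −0.66 to −0.02 in injected libraries and from −0.21 to 0.22 in untreated ones, so the ranges overlapped. S100a8 and S100a9 encode the 2 subunits of calprotectin. S100a8 stood at 15.2, 22.8, 23.0 and 16.5 CPM in untreated and at 10.6, 14.0 and 18.6 CPM (lowest, median and highest) in injected lungs, and S100a9 at 22.8, 33.3, 34.4 and 29.5 CPM and at 16.8, 22.5 and 29.1 CPM. The ranges overlapped in both genes, with log2 fold changes of −0.45 ± 0.14 and −0.41 ± 0.14 (SE). With Xist as a covariate the list's median was −0.24 and 3 of the 13 reached an unadjusted p under 0.05. In the libraries with high Xist alone these values were also −0.24 and 3. The summed level was 148 to 181 CPM in untreated and 117 to 164 CPM in injected lungs.

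Lymphocyte genes had lower medians with daily saline than in the other 3 groups. All 16 B cell genes lay above 0 and 5 reached an unadjusted p under 0.05 (3.21% of all genes upward). Their median was 0.23, and it was 0.03 for daily saline, 0.30 for water, 0.37 for Scrambled 1 and 0.17 for Scrambled 2. Blk, a kinase of the B cell receptor pathway, stood at 0.42 ± 0.13 (log2, SE), with 0.14 in daily saline. Of 21 T and NK cell genes 16 lay above 0, and 4 reached an unadjusted p under 0.05 upward and 1 downward (3.21% and 3.22% of all genes). The median was 0.18 over the 4 groups but −0.08 in daily saline. Relative to the untreated mean, the list's mean log2 level in daily saline replicates 1 to 4 was 0.03, 0.02, −0.05 and −0.36. With Xist as a covariate the T and NK cell median was 0.14, with 3 genes at an unadjusted p under 0.05 upward. In the libraries with high Xist alone these values were 0.06 and 1. Lat, an adaptor of the T cell receptor, stood at 0.51 ± 0.19 (log2, SE), with 1.02 in water and −0.02 in daily saline. Thymus genes in sum reached 186 CPM in a water library against at most 144 CPM in untreated lungs, and without water replicate 3 the T and NK cell median was 0.14 with 2 genes at an unadjusted p under 0.05 upward, while the B cell median was 0.24 with 7. H2-Ob was the only one of 18 antigen presentation genes to reach an unadjusted p under 0.05.

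Splicing factor genes and the kinases that regulate them lay lower, with the lowest median in daily saline. All 28 lay below 0, 16 of them in all 4 groups (17.0% of all genes), and 17 reached an unadjusted p under 0.05 (3.22% of all genes downward). In the edgeR test among the 4 injected groups 9 passed at an adjusted p under 0.05 (1.53% of all genes). The median was −0.13, which was −0.31 for daily saline, −0.01 for water, −0.07 for Scrambled 1 and −0.12 for Scrambled 2. Without daily saline in the mean the median was −0.07 and none of the 28 reached an unadjusted p under 0.05. Pnisr, a splicing regulator that keeps some of its introns in the nucleus, stood at 238 ± 26.8 CPM (SD, n = 4) in untreated and 174 ± 10.6 CPM (SD, n = 4) in daily saline lungs, and in its own edgeR comparison daily saline fell by 0.46 on the log2 scale (adjusted p = 0.0277). Arglu1 fell by 0.44 there (adjusted p = 0.0360). Daily saline also had the lowest mean intronic share, with replicate 4 (11.2%) above untreated replicate 1 (10.9%) and Scrambled 2 replicate 2 (11.1%), and with the intronic share as a covariate its own comparison gave 0 calls.

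**Figure D4:**
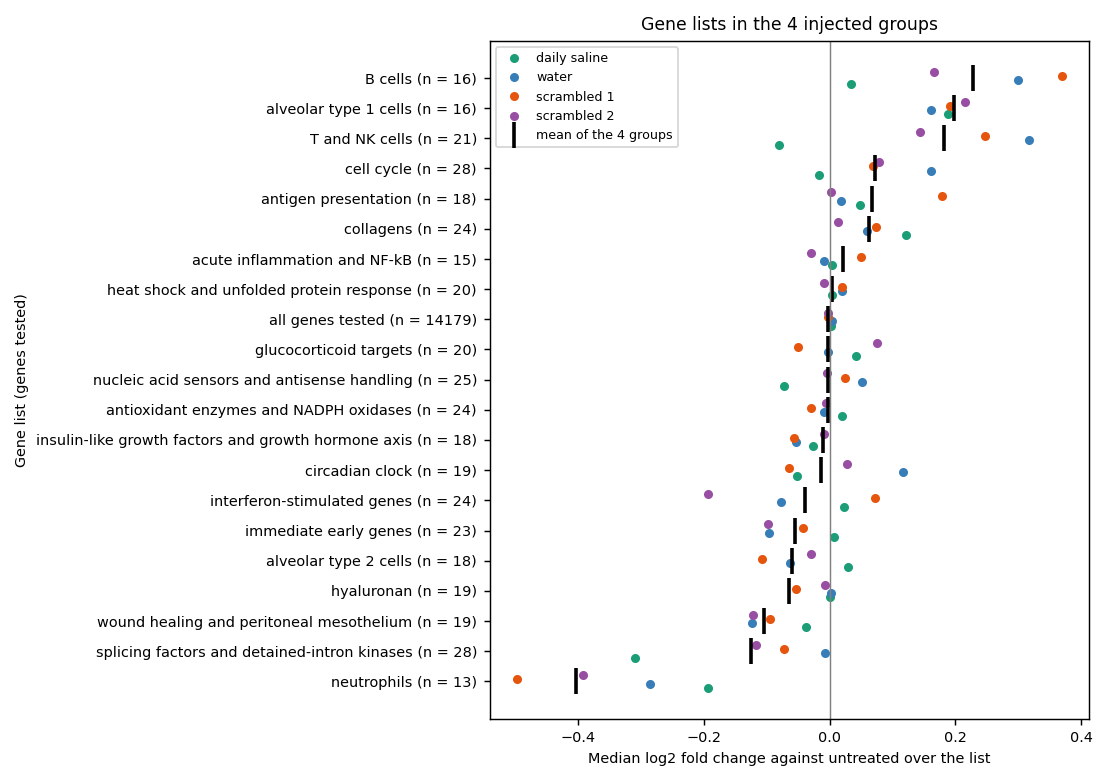
Median log2 fold change against untreated (horizontal axis) over each of 20 gene lists and over all genes tested, with 1 point for each injected group and a black mark for the mean of the 4; the number of genes tested stands beside each name. Alveolar type 1 genes have all 4 points together near 0.2, while the B cell, T and NK cell and splicing lists have the daily saline point apart from the others.

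Growth, clock and matrix lists held a few genes each. Of 18 genes of the insulin-like growth factor and growth hormone axis 4 reached an unadjusted p under 0.05, all lower (3.22% of all genes downward). They were the growth hormone receptor Ghr (−0.16 ± 0.04, log2, SE), the receptor adaptor Grb10 (−0.13 ± 0.04; adjusted p = 0.0407 in DESeq2), Igf1 (−0.19 ± 0.06) and the imprinted gene Mest (−0.17 ± 0.08), whose sign was not the same in all 4 groups. Only 12.8% of Ghr reads were unique. Of 19 clock genes Dbp stood at 12.1 ± 1.46 CPM (SD, n = 4) in untreated and 15.4 ± 1.51 CPM (SD, n = 16) in injected lungs, a log2 fold change of 0.34 ± 0.08 (SE), Nr1d1 at 0.18 ± 0.06 and Nfil3 at −0.26 ± 0.08, and the list's median was −0.01. The time of day of sampling is not given in the labels. Of 19 hyaluronan genes Cemip, Itih5 (−0.19 ± 0.06) and Lyve1 (−0.22 ± 0.08) lay lower and Has1 (0.75 ± 0.36) and Itih1 (0.54 ± 0.26) higher at an unadjusted p under 0.05. In daily saline Itih5 stood at 0.07 and Lyve1 at 0.04, so the sign of Cemip, Itih5 and Lyve1 was not the same in all 4 groups, and Itih5 was lowest with Scrambled 1 (−0.60). All 28 cell cycle genes lay above 0, 1 at an unadjusted p under 0.05 (Ccnb1, 0.33 ± 0.13), but with Xist as a covariate 21 of the 28 did and in the libraries with high Xist 17 did. The other 22 lists of response pathways, developmental signals and cell types had medians of −0.10 to 0.18, with at most 3 genes higher and 2 lower at an unadjusted p under 0.05 in a list.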

How the data were processed

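Lung RNA (stranded polyA selection) of 20 libraries at day 14 was analysed, 5 groups of 4 taken from the sample labels. Per the submitters' processing notes bcl2fastq 2.0 demultiplexed the reads. For aligner, genome build and strand setting the sources used here give nothing. The deposited files hold read counts made by the authors for 46165 gene records, of which 18853 had an exon read in the series. Total exon counts, which include reads that map to several places, were tested. Positions are printed as in the files. The RefSeq table of GRCm38.p6 holds 42999 of the gene IDs, and 97.4% of these start within 5 kb of it.

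Counts were fitted with R 4.3.3 and edgeR 4.0.16, using robust quasi-likelihood F tests after filterByExpr and TMM scaling, all 20 libraries sharing 1 estimate of the spread. The contrast was the mean of the 4 injected groups minus untreated, with Benjamini-Hochberg adjustment over all genes and a threshold of 0.05. An SE is the size of the log2 fold change over the root of F. CPM values are TMM-normalised. Intron counts were fitted in the same way. The programs were tested on simulated counts. Chi-square statistics per gene of 2.62 to 11.9 for same-group pairs showed no library deposited again.

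The members, the 50 gene lists and the named-gene rule were chosen with earlier results of these data known. The rule takes shared calls, and where fewer than 5 exist in a direction the 5 smallest p-values there with the same sign in all 4 groups, and up to 2 members of a list. Xist, Y-linked and predicted genes were passed over (1 clone name, BC100530). After the results were seen, 20 lists were chosen for description by gene, list members were named only at an unadjusted p under 0.05 or where the text says otherwise, and further genes were named (BC100530, Lars2, Prss35, Aspn, the other type 1, type 2 and collagen genes, and those whose ranges do not overlap). The alternatives were DESeq2 1.42.0, limma 3.58.1 (voom), other scaling, filters, read types, covariates and sets of libraries. The fit of libraries with high Xist alone was also added after the results were seen. It pooled the 5 injected libraries as 1 group (2 daily saline, 2 Scrambled 1 and 1 Scrambled 2), without equal group weights. Some genes that were called or selected are not reported here.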

Additional observations from a re-analysis of the deposited data

Results flagged for a closer look

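Among 240 groups of 4 libraries, for the named genes and the intronic share, 20 had a library outlying by Dixon's criterion, in 16 genes, where chance flags about 1 in 20. Untreated replicate 4 was low in Neurl3 (18.0 CPM, others 26.2 to 27.9). In daily saline, replicate 4 was low in Neurl3 (14.5 CPM) and high in Fam174b (178.9 CPM), Ager (1629 CPM) and Col4a4 (498 CPM), replicate 2 was high in Nox4 (94.0 CPM), and replicate 1 was low in Klf9 (74.0 CPM), S100a8 (10.9 CPM) and S100a9 (16.8 CPM). In water, replicate 3 was low in Nox4 (65.4 CPM), replicate 4 high in Icam1 (274 CPM) and replicate 2 low in Tnc (524 CPM). In Scrambled 1, replicate 4 was low in Spock2 (315 CPM, others 417 to 433), Fam174b (147 CPM), Col4a5 (257 CPM) and Gprc5a (405 CPM), and replicate 2 was high in H2-Ob (22.0 CPM). In Scrambled 2, replicate 4 was high in Ager (1848 CPM, others 1407 to 1440) and Aqp5 (226 CPM), and replicate 1 was low in Cgn (78.3 CPM).

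The 4 injected groups differed from each other in 12 named genes by the edgeR test among them. The adjusted p was 1.37e-05 for Prss35, 0.000319 for Itih5, 0.000319 for Aspn, 0.00184 for Gimap3, 0.00382 for H2-Ob, 0.00664 for Nox4, 0.0073 for Cemip, 0.0207 for Bdkrb2, 0.0227 for Pnisr, 0.0256 for Gpc4, 0.0404 for Neurl3 and 0.043 for Tnc.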

How the results depend on the processing

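The count of called genes in the injected mean was 0 in edgeR. It was also 0 with unique reads, reads in genes including introns, RLE scaling, looser and stricter filters and a 2-group fit. The count was 0 with Xist or the intronic share as a covariate, X and Y genes left out and libraries with high Xist alone. So it was with water replicate 3 left out (alone or with Xist) and in the mean without water, Scrambled 1 or Scrambled 2. A fold threshold also gave 0, but it cannot give smaller p-values, so 0 calls in the main test had fixed that outcome. The count was 12 with DESeq2, 2 with limma-voom, 1 with all 32 libraries and 11 without daily saline. The shared count was the same 12, 2, 1 and 11 (in the last over 3 groups). With 1 library left out both counts were 0 to 2: without untreated replicate 4, Neurl3 and Bdkrb2 were called (adjusted p 0.0332 and 0.0229), and without Scrambled 1 replicate 2, Cemip (adjusted p 0.0134). The cause was not tested. The counts for daily saline, water, Scrambled 1 and Scrambled 2 alone were 104, 23, 74 and 2 with DESeq2. With limma-voom they were 118 for daily saline, 71 for Scrambled 1 and 1 for Scrambled 2. With the intronic share they were 0 for daily saline, 11 for water and 70 for Scrambled 1, and with Xist 0 for water. With 1 library left out they ranged over 1 to 53 for daily saline, 1 to 9 for water, 6 to 49 for Scrambled 1 and 0 to 3 for Scrambled 2. The count among injected groups was 604 with DESeq2, 983 with limma-voom, 43 with the intronic share and 52 to 618 with 1 library left out (52 without daily saline replicate 1, 618 without Scrambled 2 replicate 4). None of the 47 genes refitted under these alternatives reversed direction. Same-numbered libraries deviated together only weakly (mean r = 0.055, lowest −0.25, 10 of 20 best with their own number), so the numbers were not taken as pairs. The replicate block gave 0 calls for the injected mean and 243 among injected groups. Depth bounds low genes: the 95% interval lay within 2-fold for 98.0% of genes over 1 CPM and 97.2% of all.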

Other observations

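The sum of Y-linked genes, in CPM of gene reads, was 156 in untreated replicate 1 and 157 in daily saline replicate 1, both with Xist under 1 CPM, against 299 to 381 in the other 10 libraries with low Xist. The promoters (250 bases before to 50 after the start, GRCm38.p6, RefSeq) of 14 of the 16 alveolar type 1 genes were found in the table and searched for CATTCC on either strand, the only motif searched. It was in 0 of the 14, against 16.6% of 27025 genes.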
